A study of Mus musculus with 30 samples.

Results

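The 6 libraries described here came from bone marrow-derived macrophages of Ticam2-/- mice (KO) stimulated for 6 h, 3 with lipopolysaccharide (LPS) and 3 with lipoteichoic acid (LTA), and were taken by their labels from the 30 RNA-seq libraries of the series. LPS was given at 10 ng/mL and LTA at 100 ng/mL, so the ligands were compared at the doses used and not at matched ones. The other groups used here were 3 LPS and 3 LTA libraries of KO cells at 2 h, 3 LPS and 3 LTA libraries of wild-type (WT) C57BL/6J macrophages at 6 h, and 3 libraries of untreated KO cells. Marrow cells, with red cells lysed, were differentiated in medium with L929 cell supernatant as the source of M-CSF, the macrophage growth factor. Each replicate held cells of 1 animal, and 3 KO and 3 WT animals gave all groups of their genotype; which LPS library shares an animal with which LTA library is not stated. The labels do not say which part of Ticam2 the allele removes or give the animals' age.

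LPS is sensed by TLR4 with its co-receptor CD14, and LTA is sensed by TLR2. Both receptors use the adaptors MyD88 and TIRAP, which lead to NF-κB, the MAP kinases and inflammatory cytokines. TLR4 also signals after uptake through TRAM, the product of Ticam2, which links it to TRIF, to the transcription factor IRF3 and to interferon beta and the genes that interferon induces. The comparison asks how alike the responses to the 2 ligands are in cells that lack TRAM.

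The 6 libraries held 10955806 to 13521660 counts. Ticam2 itself had 2.14, 1.51 and 1.05 CPM (counts scaled to the normalised library size) in the KO LPS libraries and 0.878, 1.34 and 1.17 CPM in the KO LTA libraries, against means of 21.8 ± 1.1 CPM with LPS and 25.7 ± 2.6 CPM with LTA in WT cells (SD, n = 3 each), so low counts remained in KO cells. The macrophage genes Csf1r, Adgre1 and Cd68 had 994 to 1029, 826 to 887 and 846 to 899 CPM in the LPS libraries and 1053 to 1061, 893 to 900 and 858 to 885 CPM in the LTA libraries. Of the marker lists of other cells, 12 erythroid and megakaryocyte genes, led by the globin gene Hbb-bs, summed to 6039 to 7511 CPM with LPS and 6026 to 6694 CPM with LTA. Marker sums of T and NK cells stayed at 0.444 to 0.631 CPM with LPS and 0.456 to 0.991 CPM with LTA, with Ncr1 at 0 in all 6 libraries, and those of dendritic cells, mast cells and B cells stayed at or below 7.02 CPM in each library. Neutrophil markers summed to at most 25.98 CPM with LPS and 25.54 CPM with LTA, and fibroblast markers to at most 46.4 CPM with LPS and 44.1 CPM with LTA. The part of these other cells in any result was not tested.

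LPS replicate 1 of the KO cells stood apart from the other LPS libraries. On the first principal component of the 6 libraries (43.4% of the variance) it lay at -0.80, against 8.43 and 8.06 for LPS replicates 2 and 3 and -4.10, -7.62 and -3.96 for the LTA libraries. The nuclear RNA Malat1 had 386 CPM in that library, against 163.9 and 189.4 CPM in LPS replicates 2 and 3, and 306, 479 and 294 CPM in the LTA libraries, the highest being LTA replicate 2. Long transcripts such as Golgb1, Ankrd11 and Atrx were likewise highest in these 2 libraries within their groups. The part of this in the results was not tested. Counts are given below with each library left out and, as a choice made after seeing the data, without LPS replicate 1 and LTA replicate 2 together.

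In KO macrophages the 2 ligands gave nearly the same transcript levels at 6 h. Of 15119 genes tested, 402 (2.66%) differed between LPS and LTA at an adjusted p below 0.05 (edgeR quasi-likelihood test, Benjamini-Hochberg). Of these, 203 (1.34%) were higher and 199 (1.32%) lower with LPS, and 2134 genes had an unadjusted p below 0.05. The called differences were small, with a median of 0.26 on the log2 scale (1.197-fold), and 8 genes (0.0529%) were called with a difference of at least 2-fold, 6 (0.0397%) higher and 2 (0.0132%) lower. In WT macrophages the same contrast called 4810 genes (31.8%), 2699 (17.9%) higher and 2111 (14%) lower with LPS, and 827 (5.47%) by at least 2-fold. The ligand difference itself differed between KO and WT cells for 3425 genes (22.7%), being higher in KO cells for 1382 (9.14%) and lower for 2043 (13.5%), and for 657 (4.35%) it did so by at least 2-fold. On the scale of total counts, the split was 180 higher and 246 lower in KO cells, 2136 higher and 3409 lower in WT cells, and 2304 higher and 1664 lower for the genotype difference.

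The size of the differences was bounded by their intervals as well as by the calls. The median absolute difference between LPS and LTA was 0.11 in KO cells and 0.23 in WT cells (log2), and the 99th percentile was 1.20 in KO cells and 2.06 in WT cells. Among the 8616 genes with a mean of at least 3 log2 CPM over the 6 KO libraries, the 95% interval of the difference lay within 2-fold in either direction for 99.9% in KO cells and 92.8% in WT cells, and within 1.5-fold for 98.9% in KO cells and 75.6% in WT cells. Over all tested genes with an interval the share within 2-fold was 84.5% in KO cells (12763 of 15101) and 72.1% in WT cells (10881 of 15095). The rest included many genes of few counts, whose intervals do not bound the difference to within 2-fold.

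On the first principal component of the 12 libraries of 6 h (87.3% of the variance), KO libraries lay between 39.3 and 41.1 and WT libraries between -49.3 and -31.6. On the second component (8.17%), the KO LPS libraries lay between 2.85 and 2.99 and the KO LTA libraries between 0.70 and 0.86, while the WT LPS libraries lay between 15.03 and 15.99 and the WT LTA libraries between -19.4 and -19.0. The gap between the ligands on this component was narrower in KO than in WT cells.

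**Figure D1:**
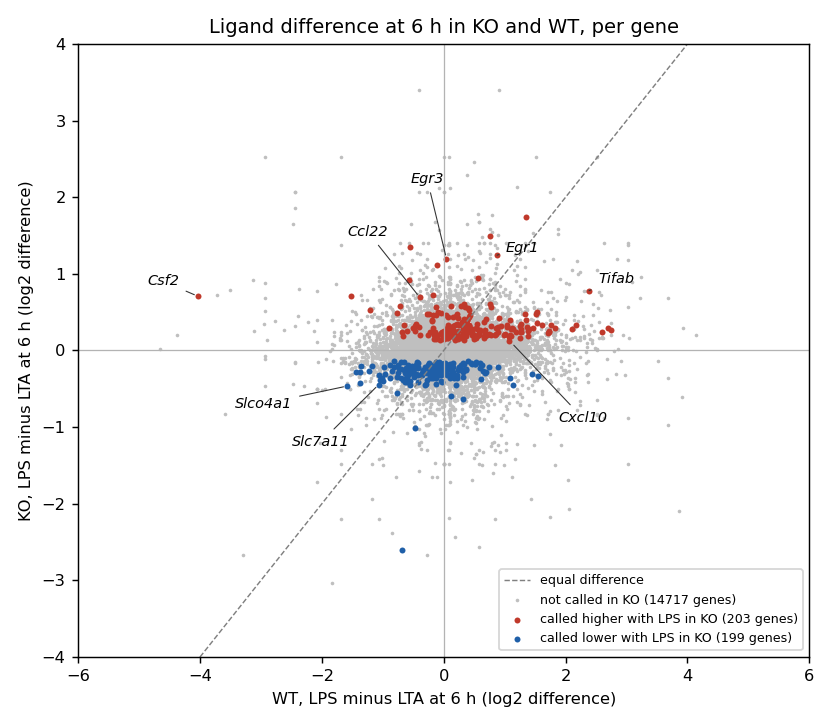
Difference between LPS and LTA at 6 h for each of the 15119 tested genes, in KO cells (vertical, log2 difference, LPS minus LTA) against WT cells (horizontal, log2 difference). Red points were called higher (203 genes) and blue points lower (199 genes) with LPS in KO cells, gray points were not called there, and the dashed line marks an equal difference in both genotypes; the median absolute difference was 0.11 on the KO axis and 0.23 on the WT axis.

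The KO cells responded to both ligands. In these bulk samples, fewer cells of a type and less RNA per cell cannot be told apart. Against untreated KO cells, 7908 genes (52.3%) changed with LPS, 3890 (25.7%) up and 4018 (26.6%) down, and 7898 genes (52.2%) changed with LTA, 3887 (25.7%) up and 4011 (26.5%) down. Both comparisons use the same 3 untreated libraries. With total counts as the scale the median of all genes lay at -0.19 with LPS and -0.18 with LTA, and the split became 2365 up and 6341 down with LPS and 2474 up and 6207 down with LTA. Of the 1011 genes that rose at least 2-fold by the mean of the 2 ligands, 117 (11.6%) differed between the ligands, beside 2.66% over all tested genes. Of the 117, 80 were higher and 37 lower with LPS. For the 1011 genes the median absolute difference between ligands was 0.15 beside a median response of 1.80 (log2). Of the 641 genes that fell at least 2-fold, 11 (1.72%) differed, and their median absolute difference was 0.19 beside a median response of -1.22.

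Of the 131 genes induced at least 8-fold by each ligand in KO cells, 36 differed between the ligands. Of these, 26 were higher and 10 lower with LPS, beside 1.34% higher and 1.32% lower over all tested genes. The genes described next are the 8 of the 131 chosen for the tightest intervals around 0, so that they are near level follows from the choice. Tnf, the gene of the cytokine TNF (chromosome 17, 35199381 to 35202007, GRCm38), had 1676, 1775 and 1859 CPM in the KO LPS libraries, against 1755, 1802 and 1741 CPM in the KO LTA libraries and 47.5, 45.4 and 44.4 CPM in untreated KO cells. The ligand groups overlapped, and the log2 difference was 0.00 with a 95% interval of -0.07 to 0.08. In WT cells Tnf was lower with LPS than with LTA (-0.94 ± 0.04, SE, adjusted p = 7.5e-29). Acod1, the enzyme that makes itaconate, had 973, 949 and 987 CPM with LPS and 979, 971 and 988 CPM with LTA in KO cells, a difference of -0.02 (interval -0.09 to 0.06). The other 6 were Tnfaip2, a TNF-induced gene (0.01, interval -0.06 to 0.08), Pde4b, a cyclic AMP phosphodiesterase (0.03, -0.06 to 0.11), Zc3h12a, an RNase that cuts inflammatory mRNAs (0.00, -0.09 to 0.10), Nlrp3, the inflammasome sensor (0.00, -0.10 to 0.09), Saa3, an acute-phase protein gene (0.00, -0.10 to 0.10), and Slco3a1, an organic anion transporter (0.00, -0.10 to 0.11).

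The receptors and adaptors of the pathway were not called between the ligands in KO cells. Of 23 tested genes, 0 passed in either direction (median log2 difference 0.01, as over all genes). In WT cells 10 were higher and 7 lower with LPS, beside 17.9% and 14% over all genes. By edgeR's quasi-likelihood test 2 of the 23 had an unadjusted p under 0.05 in KO cells. DESeq2 called 0 there, with no adjusted p for 3 of the 23. Leaving out single libraries gave 0 higher and 0 lower calls in each edgeR fit, whereas with total counts as the scale 1 gene, Tlr4, was called lower. Tlr4 had 49.7, 51.5 and 49.2 CPM with LPS and 56.0, 58.0 and 56.9 CPM with LTA, a difference of -0.19 ± 0.06 (adjusted p = 0.064), and the groups did not overlap. Tlr2 differed by 0.05 (interval -0.04 to 0.14) and Cd14 by 0.06 (interval -0.03 to 0.14).

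**Figure D2:**
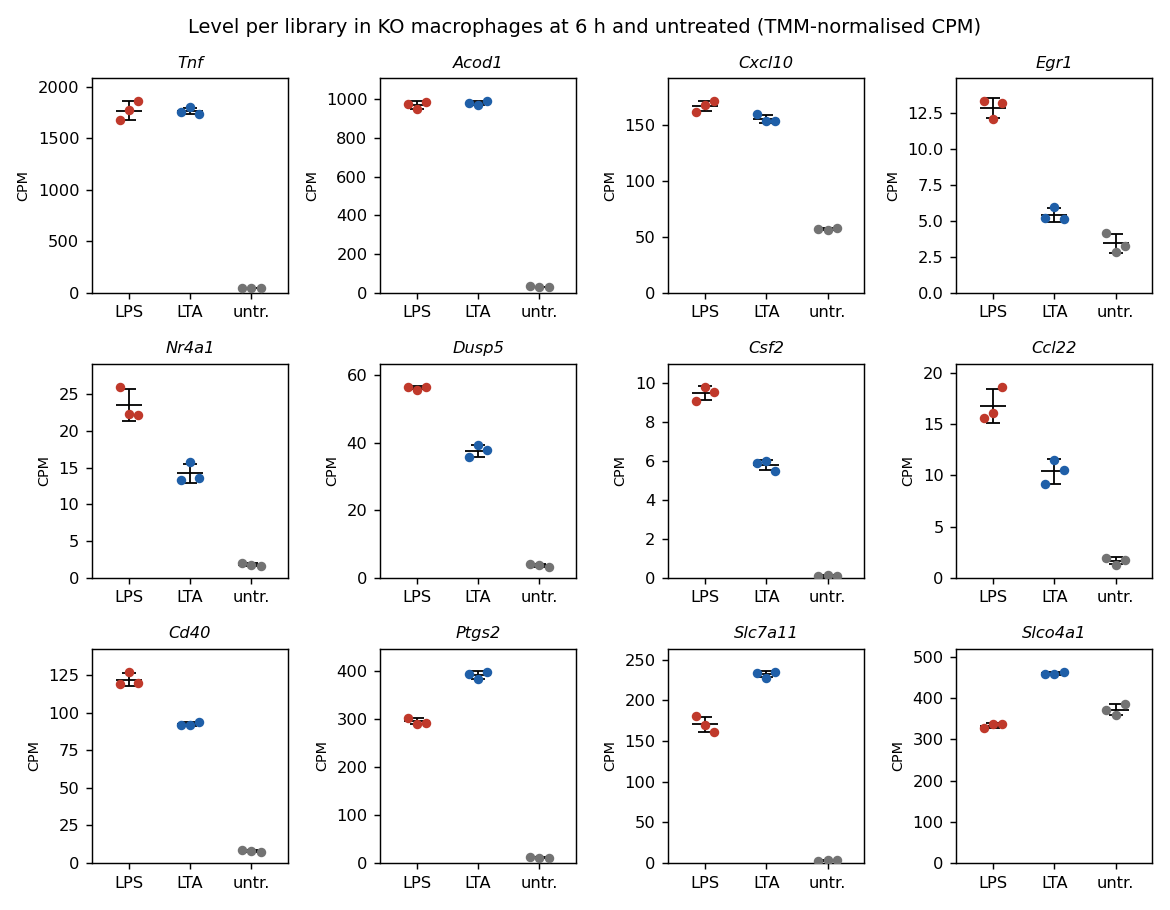
Level of 12 genes in each KO library (points; TMM-normalised CPM on a linear axis that starts at 0) with LPS at 6 h, LTA at 6 h and no treatment; bars give the mean and SD of 3 libraries. Tnf and Acod1 overlap between the ligands, Egr1, Nr4a1, Dusp5, Csf2, Ccl22 and Cd40 are higher with LPS, and Ptgs2, Slc7a11 and Slco4a1 are lower with LPS.

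Interferon-related genes differed less between the ligands in KO than in WT cells. Of 67 tested interferon-stimulated genes, 7 were higher with LPS than with LTA in KO cells (Ifi47, Dhx58, Zbp1, Ifi205, Rtp4, Tor3a and Xaf1) and 2 were lower (Trim25 and Slfn9), beside 1.34% higher and 1.32% lower over all genes. The difference was positive for 52 of the 67. Their differences ranged from -0.33 to 0.34 with a median of 0.08 (log2). In WT cells all 67 were higher with LPS, with a median of 0.97, beside 17.9% higher over all genes in WT cells. For all 67 the KO difference was smaller than the WT difference by the test of the genotype difference (66 with total counts as the scale). With single libraries left out, 3 to 11 were higher and 0 to 2 lower in KO cells. Of 12 direct IRF3 targets, 4 were higher with LPS in KO cells (Ccl5, Ifit1, Ifit3 and Isg15; median 0.13), against 12 in WT cells (median 1.27), and the ligand difference was smaller in KO than in WT cells for 11 (10 with total counts). Single libraries left out gave 2 to 4 of the 12 higher in KO cells. Of 16 interferon-inducible GTPases, which act against intracellular pathogens, Gbp2 and Gvin1 were called higher in KO cells (median 0.24), against all 16 in WT cells (median 1.33); single libraries left out gave 0 to 2, and none was called without LPS replicate 1 and LTA replicate 2.

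Ifit1, whose protein binds viral RNA, shows the pattern. It had 94.9, 92.6 and 96.5 CPM in the KO LPS libraries, against 79.8, 81.6 and 79.2 CPM in the KO LTA libraries and 53.2, 58.0 and 56.5 CPM in untreated KO cells. The groups did not overlap, the difference was 0.24 ± 0.05 (SE, adjusted p = 0.00061) and it was called in all 6 leave-one-out fits. In WT cells Ifit1 averaged 2307 ± 100.4 CPM with LPS and 1012 ± 12.9 CPM with LTA (SD, n = 3 each), a difference of 1.19 ± 0.04. Rsad2, the antiviral enzyme viperin, had 84.6, 78.9 and 83.2 CPM with LPS and 76.5, 81.1 and 75.9 CPM with LTA in KO cells, where the groups overlapped (0.08 ± 0.05, adjusted p = 0.50), and averaged 6625 ± 184.9 CPM with LPS and 1863 ± 67.0 CPM with LTA in WT cells. Cxcl10, a chemokine that attracts T cells, averaged 167.0 ± 4.6 CPM with LPS and 155.5 ± 3.7 CPM with LTA in KO cells (0.10 ± 0.04, adjusted p = 0.19), and differed by 1.11 ± 0.04 in WT cells. Ifnb1, the interferon beta gene, stayed at or below 0.615 CPM in each KO library of 6 h, and its difference of 0.26 had an interval of -0.68 to 1.19. Ifi205, Gvin1, Gbp2 and Slfn9 belong to families of similar genes, whose reads the counting may have split.

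The stretch before the start of Ifit1 holds 2 matches to the core of the interferon-stimulated response element (GAAA, any 2 bases, then GAAA, on either strand). Interferon regulatory factors and the STAT complex of the interferon receptor bind such sites. It is shown because Ifit1 kept a small difference between ligands without TRAM, and covers chr19:34640739-34640838 on the plus strand (RefSeq, GRCm38.p6), 150 to 51 bases before the start. Capitals mark the matches.
Ifit1: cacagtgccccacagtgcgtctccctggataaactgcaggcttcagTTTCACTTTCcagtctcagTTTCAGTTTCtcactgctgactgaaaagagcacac
Over the 250 bases before each start, this core was found in 5.24% of 191 windows of the genes higher with LPS in KO cells (147 of 203 genes matched a RefSeq window), in 0.885% of 226 windows of the genes lower with LPS (168 of 199 matched), in 2.95% of 12530 windows of the tested genes, and in 2.98% of 32851 windows of all genes. These shares, and those of the motifs below, are descriptions, and a match is not evidence of binding.

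The genes higher with LPS than with LTA in KO cells included 10 immediate early genes, the transcription factors that are induced within minutes of a stimulus through the MAP kinases. Of 27 tested, these were higher (Egr1, Ier2, Egr2, Klf2, Nr4a1, Myc, Fos, Egr3, Csrnp1 and Klf6) and 1 lower (Ier3), beside 1.34% and 1.32% over all genes, and their median was 0.12. Single libraries left out gave 9 or 10 higher and 0 or 1 lower, and 9 were higher without LPS replicate 1 and LTA replicate 2. In WT cells 11 were higher and 11 lower with LPS (9 and 11 with total counts), beside 17.9% and 14% over all genes.

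Egr1, a zinc-finger transcription factor, had the largest difference among the called genes with a mean of at least 2 log2 CPM. It had 13.3, 12.1 and 13.2 CPM in the KO LPS libraries, against 5.18, 5.98 and 5.13 CPM in the KO LTA libraries and 4.19, 2.85 and 3.27 CPM in untreated KO cells. Each LPS library was above each LTA library, with a difference of 1.24 ± 0.11 (SE, adjusted p = 1.2e-11) that ranged from 1.20 to 1.32 with single libraries left out. In WT cells Egr1 was also higher with LPS, at 19.4 ± 0.7 CPM against 10.6 ± 0.3 CPM with LTA (SD, n = 3 each), and the difference did not pass the test between genotypes (0.37 ± 0.15, adjusted p = 0.088). Its relative Egr2 had 36.1, 35.8 and 35.9 CPM with LPS and 24.2, 23.04 and 25.1 CPM with LTA in KO cells, a difference of 0.58 ± 0.08 (adjusted p = 5.5e-07), whereas in WT cells it was lower with LPS (-0.72 ± 0.18, adjusted p = 0.0013). The test of the genotype difference gave 1.29 ± 0.20 (adjusted p = 4.5e-07) for Egr2. Nr4a1, an orphan nuclear receptor, had 26.02, 22.2 and 22.2 CPM with LPS and 13.4, 15.7 and 13.6 CPM with LTA (0.72 ± 0.10, adjusted p = 9.9e-07). Fos, a subunit of AP-1, and Myc differed by 0.33 ± 0.06 and 0.40 ± 0.06, and both were called in all 6 leave-one-out fits; Klf6 was called in 2 of the 6. Klf2, a Krüppel-like transcription factor, lay below its untreated level, at -0.46 with LPS and -0.88 with LTA (log2).

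Feedback inhibitors of NF-κB and MAP kinase signalling were also among the genes higher with LPS. Of 33 such genes and NF-κB subunits, 8 were higher (Tnfaip3, Dusp5, Dusp2, Socs3, Dusp1, Zfp36, Socs1 and Tnip3) and 2 lower (Otud7b and Dusp4), beside 1.34% and 1.32% over all genes, while the list's median was 0.03; single libraries left out gave 6 to 9 higher and 0 to 2 lower. Dusp5, a phosphatase of ERK (chromosome 19, 53529109 to 53542431), had 56.4, 55.8 and 56.7 CPM in the KO LPS libraries, against 35.8, 39.3 and 37.8 CPM in the KO LTA libraries and 3.95, 3.72 and 3.27 CPM in untreated KO cells. The groups did not overlap (0.58 ± 0.07, adjusted p = 7e-08), and in WT cells the difference was 0.11 ± 0.07 (adjusted p = 0.23), smaller than in KO cells by the genotype test (0.47 ± 0.10, adjusted p = 0.00016). Tnfaip3, the ubiquitin-editing enzyme A20, had 315, 298 and 304 CPM with LPS and 246, 232 and 242 CPM with LTA (0.35 ± 0.04, adjusted p = 2.2e-08). Socs3, an inhibitor of cytokine receptor signalling, had 555, 558 and 566 CPM with LPS and 460, 464 and 440 CPM with LTA (0.30 ± 0.04). Dusp2 (0.40 ± 0.05), the MAP kinase phosphatase Dusp1 (0.35 ± 0.05) and Zfp36, the mRNA decay factor tristetraprolin (0.28 ± 0.04), were called in all 6 leave-one-out fits. Nfkbia, which encodes IκBα, was not called (0.10 ± 0.04, adjusted p = 0.17), but it was without LPS replicate 1 and LTA replicate 2 (0.14, adjusted p = 0.041).

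Serum response factor binds the CArG box, a site found before many immediate early genes. It was searched on both strands and was present in 5.76% of the windows of the genes higher with LPS in KO cells, in 2.21% of those of the genes lower with LPS, in 1.11% of the windows of the tested genes and in 1.47% of all windows. The 11 windows of the higher genes with a match belonged to 8 genes, since a gene can have several starts: Actg1, Bcl2l12, Dusp5, Egr2, Iah1, Myadm, Tceal8 and Zfp36. The matches of Dusp5 and Egr2 are shown in capitals because the ligand difference of these genes was higher in KO than in WT cells by the genotype test. Both stretches run from 150 to 51 bases before a RefSeq start on the plus strand of GRCm38.p6, at chr19:53528995-53529094 for Dusp5 and chr10:67537719-67537818 for Egr2.
Dusp5: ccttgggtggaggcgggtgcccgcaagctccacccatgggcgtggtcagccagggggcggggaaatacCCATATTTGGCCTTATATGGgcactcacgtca
Egr2: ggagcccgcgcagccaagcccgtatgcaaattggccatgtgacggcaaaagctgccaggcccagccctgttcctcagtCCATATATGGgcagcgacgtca
Dusp5 holds 2 adjoining matches, 82 and 72 bases before its start, and Egr2 holds 1, 72 bases before its start.

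Cytokine and chemokine genes gave calls in both directions in KO cells. Of 35 tested, 12 were higher (Tnfsf9, Il1a, Ccl22, Ccl2, Ccl9, Ccl7, Csf2, Il1b, Ccl17, Il1rn, Ccl4 and Il18) and 2 lower (Cxcl2 and Il6), beside 1.34% and 1.32% over all genes, with a median of 0.20; single libraries left out gave 10 to 12 higher and 1 to 3 lower. In WT cells 13 were higher and 20 lower, with a median of -0.35 (11 and 20 with total counts), beside 17.9% and 14% over all genes. Csf2, the gene of the growth factor GM-CSF (chromosome 11, 54247271 to 54249667), had 9.06, 9.80 and 9.53 CPM in the KO LPS libraries, against 5.88, 5.98 and 5.49 CPM in the KO LTA libraries and at most 0.158 CPM in untreated KO cells. The groups did not overlap (0.71 ± 0.12, adjusted p = 0.00014). In WT cells Csf2 averaged 10.2 ± 0.7 CPM with LPS and 168.8 ± 8.2 CPM with LTA (SD, n = 3 each), a difference of -4.04 ± 0.08, and the genotype difference of 4.75 ± 0.15 (adjusted p = 2.1e-31) was the largest positive one among the genes named by rule.

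Ccl22 and Ccl17, chemokines that share the receptor CCR4, differed by 0.69 ± 0.10 and 0.71 ± 0.14 in KO cells and were lower with LPS in WT cells (-0.40 ± 0.05 and -1.52 ± 0.05); without LPS replicate 1 and LTA replicate 2, the difference of Ccl17 was 0.59 with an adjusted p of 0.052. Il1a, which encodes interleukin-1 alpha, had 243, 258 and 256 CPM with LPS and 203, 200.4 and 203 CPM with LTA (0.32 ± 0.04, adjusted p = 2e-07). Il1b had 1593, 1652 and 1762 CPM with LPS and 1433, 1443 and 1486 CPM with LTA (0.20 ± 0.04, adjusted p = 0.00067). Both were lower with LPS in WT cells (-0.47 ± 0.04 and -0.40 ± 0.04), as was Tnfsf9, the ligand of 4-1BB (0.39 ± 0.04 in KO cells and -0.19 ± 0.05 in WT cells). The monocyte chemokines Ccl2 and Ccl7, in contrast, were higher with LPS in both genotypes, by 0.27 ± 0.04 and 0.29 ± 0.05 in KO cells and by 1.27 ± 0.04 and 1.83 ± 0.05 in WT cells. Cxcl2, a neutrophil chemokine, was lower with LPS, at 4424, 4929 and 4783 CPM against 5780, 5634 and 5751 CPM with LTA in KO cells (-0.28 ± 0.04, adjusted p = 4.6e-06). Il6 had 130.8, 148.0 and 148.9 CPM with LPS and 162.0, 154.9 and 162.9 CPM with LTA (-0.16 ± 0.05, adjusted p = 0.046), and was called in 1 of the 6 leave-one-out fits. Il12b (0.42 ± 0.15, adjusted p = 0.14), Il10 (0.54 ± 0.18, adjusted p = 0.098) and Csf3 (-0.26 ± 0.08, adjusted p = 0.062) were not called, although their groups did not overlap. Without LPS replicate 1 and LTA replicate 2, Csf3 was called (-0.35, adjusted p = 0.021). Groups did not overlap for 2816 of all tested genes (18.6%).

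Co-stimulatory genes gave 2 calls of 17, both higher with LPS (median 0.06), in every leave-one-out fit, beside 1.34% higher over all genes. Cd40, a receptor for T cell help, had 118.8, 127.2 and 119.8 CPM in the KO LPS libraries, against 91.4, 92.0 and 94.0 CPM in the KO LTA libraries (0.40 ± 0.04, adjusted p = 1.3e-08), and its difference in WT cells was of like size (0.38 ± 0.04; genotype difference 0.01 ± 0.06, adjusted p = 0.91). Cd83, a marker of activated antigen-presenting cells, differed by 0.33 ± 0.05. Of 20 genes of MHC class I presentation, the peptide transporter genes Tap1 and Tap2 and the immunoproteasome gene Psmb8 were higher with LPS in KO cells (median 0.04), beside 1.34% over all genes. In WT cells 19 of the 20 were higher (median 0.62), beside 17.9% over all genes. Single libraries left out gave 1 to 6 in KO cells, 5 were called without LPS replicate 1 and LTA replicate 2, and Tap2 kept its call in 1 of the 6 fits.

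Among other genes higher with LPS, Tifab, a regulator of TRAF6 signalling, had 16.1, 15.8 and 14.8 CPM with LPS, against 8.61, 9.11 and 9.46 CPM with LTA and 11.2, 11.4 and 11.4 CPM in untreated KO cells. It lay above its untreated level with LPS (0.46) and below it with LTA (-0.32), and its ligand difference was 0.78 ± 0.10 in KO cells and 2.38 ± 0.14 in WT cells. Ptger4, a prostaglandin E2 receptor, differed by 0.57 ± 0.10 in KO cells and 0.78 ± 0.18 in WT cells, and Mmp13, a collagenase, by 0.40 ± 0.05 in KO cells and 1.08 ± 0.04 in WT cells. Chst7 (0.60 ± 0.14), Lpar6 (0.58 ± 0.15) and Nudt6 (0.56 ± 0.15) were called with all libraries and in 4, 2 and 3 of the 6 leave-one-out fits. Among the macrophage identity genes, the nucleotide receptor gene P2ry6 (0.23 ± 0.04), the lipase gene Lpl (0.19 ± 0.04), the transcription factor gene Maf (0.29 ± 0.06) and the antibody receptor gene Fcgr1 (0.26 ± 0.06) were higher with LPS in KO cells, and Rasgrp3 was lower (-0.24 ± 0.06). Each of these lay below their untreated levels with both ligands.

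The 6 genes called at least 2-fold higher with LPS in KO cells were Egr1, Egr3, Irf4, Ifitm10, Dpep3 and Gm44567, and the 2 called at least 2-fold lower were Lrrc14b and Plcxd2, named here after their values were seen. Apart from Egr1, none reached 5 CPM in any of the 6 libraries. Egr3 had 4.28, 4.78 and 2.93 CPM with LPS and 1.76, 1.61 and 1.80 CPM with LTA (1.20 ± 0.22), and Irf4, a lymphoid and myeloid transcription factor, had 1.89, 2.15 and 1.80 CPM with LPS and 0.703, 0.893 and 0.4504 CPM with LTA (1.49 ± 0.32). Egr1, Egr3 and Irf4 kept their calls in all 6 leave-one-out fits, and the other 5 in 1 to 4 of them.

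**Figure D3:**
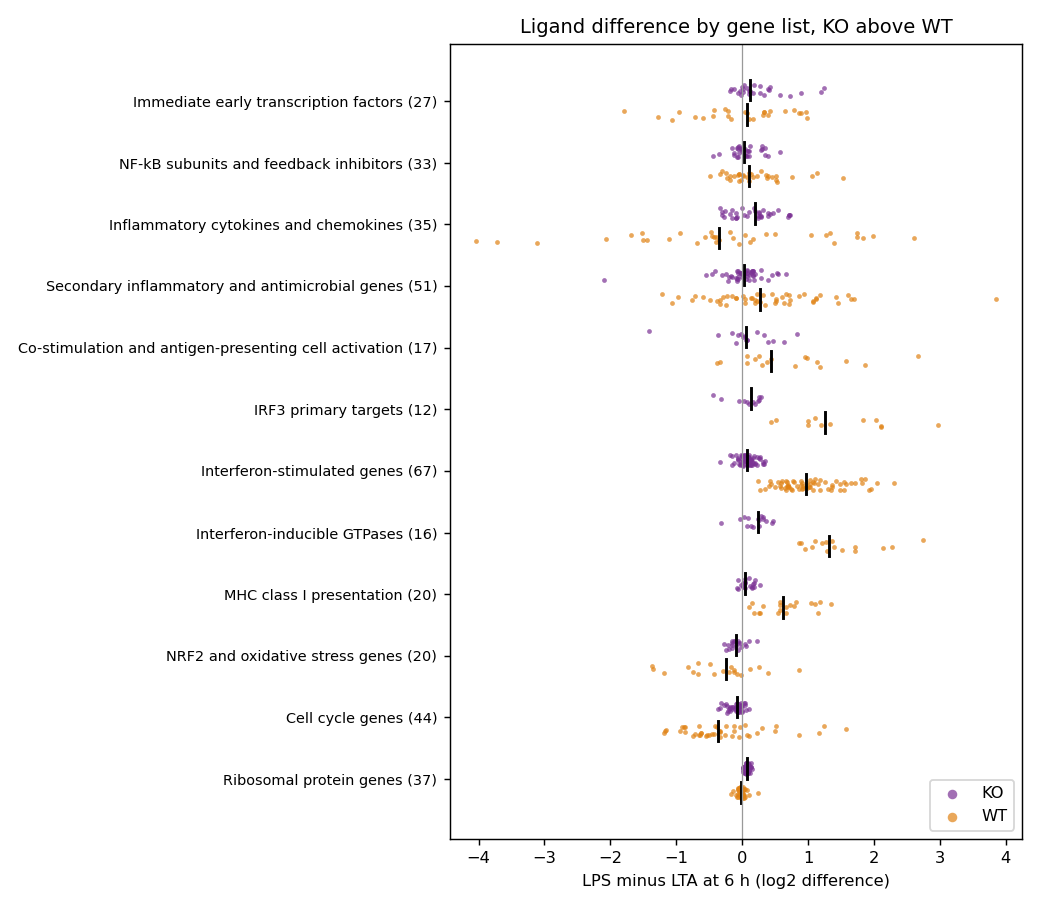
Difference between LPS and LTA at 6 h (log2, horizontal) for the tested members of 12 gene lists, KO cells in purple above WT cells in orange; each point is a gene, black ticks are list medians and the number of genes is in parentheses. The interferon lists sit far to the right of 0 in WT cells (median 0.97 for interferon-stimulated genes) and next to 0 in KO cells (median 0.08).

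Among the genes lower with LPS than with LTA in KO cells, Slco4a1, an organic anion transporter that carries thyroid hormone (chromosome 2, 180456245 to 180474867), had 327, 336 and 337 CPM in the KO LPS libraries, against 459, 458 and 465 CPM in the KO LTA libraries and 372, 360.0 and 386 CPM in untreated KO cells. Each LPS library was below and each LTA library above all 3 untreated libraries. The ligand difference was -0.47 ± 0.04 (adjusted p = 1.2e-11), from -0.48 to -0.45 with single libraries left out. In WT cells the difference was -1.59 ± 0.06. Slc7a11, the cystine importer (chromosome 3, 49892526 to 50443614), had 180.1, 169.1 and 161.3 CPM with LPS and 234, 228 and 235 CPM with LTA, against at most 3.48 CPM in untreated KO cells (-0.45 ± 0.04, adjusted p = 5.7e-10), and differed by -1.07 ± 0.04 in WT cells. Ptgs2, the cyclooxygenase of prostaglandin synthesis (chromosome 1, 150100031 to 150108227), had 302, 290.0 and 292 CPM with LPS and 393, 382 and 398 CPM with LTA (-0.41 ± 0.04, adjusted p = 6e-10), and differed by -0.60 ± 0.04 in WT cells.

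Arg2, the mitochondrial arginase, had 8.23, 7.89 and 8.40 CPM with LPS and 12.3, 11.97 and 11.7 CPM with LTA (-0.55 ± 0.10, adjusted p = 0.00059). Nos2, the inducible nitric oxide synthase that uses the same substrate, had 21.4, 18.5 and 18.5 CPM with LPS and 23.6, 23.9 and 24.8 CPM with LTA in KO cells (-0.31 ± 0.08, adjusted p = 0.021), and was called in 2 of the 6 leave-one-out fits. In WT cells Nos2 was higher with LPS (1.45 ± 0.05), and the genotype difference was -1.76 ± 0.09 (adjusted p = 4.7e-22). Tnfrsf12a, the receptor of TWEAK, was likewise lower with LPS in KO cells (-0.46 ± 0.09) and higher in WT cells (1.13 ± 0.13). Mycl, a relative of Myc, had 5.02, 5.34 and 6.15 CPM with LPS and 8.08, 8.75 and 8.20 CPM with LTA (-0.59 ± 0.11, adjusted p = 0.00091), with -0.50 and an adjusted p of 0.057 without LPS replicate 1 and LTA replicate 2. The list of 51 secondary inflammatory and antimicrobial genes gave 4 higher, Mmp13, Mmp9 and Plaur among them, and 6 lower (Slc7a11, Ptgs2, C3, Arg2, Hif1a and Nos2), with a median of 0.03, beside 1.34% and 1.32% over all genes. Single libraries left out gave 1 to 6 higher and 5 to 7 lower.

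NRF2 is the transcription factor that induces glutathione and thioredoxin genes under oxidative stress. Of 20 genes of this program, 7 were lower with LPS in KO cells (Sqstm1, Gclm, Nfe2l2, Srxn1, Txnrd1, Gclc and Cat) and 1 was higher (the metallothionein gene Mt2), with a median of -0.10, against 12 lower and 3 higher in WT cells (median -0.24). Over all genes 1.32% were lower and 1.34% higher in KO cells, and 14% lower and 17.9% higher in WT cells. The 7 differences were small, and single libraries left out gave 2 to 7 lower. Gclm, the modifier subunit of the first enzyme of glutathione synthesis (chromosome 3, 122245557 to 122270732), had 367, 376 and 382 CPM with LPS and 433, 426 and 442 CPM with LTA, against 127.4, 134.7 and 132.4 CPM in untreated KO cells (-0.21 ± 0.04, adjusted p = 0.00011). Sqstm1, the autophagy receptor p62, had 1085, 1085 and 1036 CPM with LPS and 1236, 1245 and 1311 CPM with LTA (-0.24 ± 0.04, adjusted p = 0.0001). Both were called in all 6 leave-one-out fits, whereas Nfe2l2, which encodes NRF2 (-0.15 ± 0.04), was called in 3, and Srxn1, Txnrd1 and Gclc in 1 each. The antioxidant response element TGACNNNGC, on either strand, was found in 9.95% of the windows of the genes higher with LPS, in 15.9% of those of the genes lower with LPS, in 11.7% of those of the tested genes and in 10.2% of all windows. The match before Gclm, shown as the example of this list, lies 134 bases before the start, in chr3:122245407-122245506 on the plus strand (RefSeq, GRCm38.p6, capitals mark the match).
Gclm: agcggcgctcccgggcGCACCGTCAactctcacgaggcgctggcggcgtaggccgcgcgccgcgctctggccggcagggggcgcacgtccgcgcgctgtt
The κB site, bound by NF-κB and searched on both strands, was found in 8.9% of the windows of the genes higher with LPS, in 11.1% of those of the genes lower with LPS, in 9.03% of those of the tested genes and in 7.25% of all windows.

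Other programs gave few or no calls. All 44 cell cycle genes fell with each ligand against untreated KO cells, with medians of -1.07 with LPS and -0.93 with LTA. Of the 44, 3 (Rrm2, Top2a and Cdc45) were called lower with LPS than with LTA, beside 1.32% over all genes, and 0 to 2 with single libraries left out. Most differences were slightly negative, with a median of -0.08, and 6 of the 44 were positive. Genes of MHC class II presentation (13), cholesterol synthesis (23), cholesterol efflux (15) and glycolysis (20) gave 0 calls in either direction, with medians between -0.02 and 0.09. Single libraries left out gave 0 or 1 in each direction, and cholesterol efflux gave 1 higher and 1 lower without LPS replicate 1. With all libraries, 3, 2, 2 and 4 genes of these lists, in the same order, had an unadjusted p under 0.05 in edgeR. DESeq2 called 0, 1, 1 and 1, and gave no adjusted p for 4, 3, 2 and 2. The 13 mitochondrially encoded genes gave 0 calls as well (median 0.04), and 0 or 1 with single libraries left out. In edgeR 2 of the 13 had an unadjusted p under 0.05, and DESeq2 called 0, with no adjusted p for 1. None of the 37 ribosomal protein genes was called, though all 37 had a positive difference (median 0.08; 35 with total counts as the scale). Of these 13 had an unadjusted p under 0.05 in edgeR, and DESeq2 called 1. Without LPS replicate 1, 15 of them were called higher, and 5 were without LPS replicate 1 and LTA replicate 2 together. Of 25 lysosomal genes the proton pump gene Atp6v1a was called, lower with LPS (-0.20 ± 0.04), beside 1.32% lower over all genes. Single libraries left out gave 0 to 2. Among the markers of other cells, Pf4, the platelet chemokine gene that macrophages also express, was the 1 called of 8 tested erythroid and megakaryocyte markers. It was higher with LPS, beside 1.34% higher over all genes, and was called in 2 of the 6 leave-one-out fits. The tested neutrophil, B cell, dendritic cell, mast cell and fibroblast markers gave 0 calls in edgeR. An unadjusted p under 0.05 was found there for 1 dendritic cell and 2 fibroblast markers. DESeq2 also called 0 of these markers. It gave no adjusted p for 5 of 6, 3 of 3, 2 of 2, 2 of 2 and 5 of 9, in the same order, so it could not call those.

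The direction of the KO differences was compared with that in WT cells, which share no library with them. Of the 203 genes higher with LPS in KO cells, 125 (61.6%) were higher and 30 (14.8%) lower in WT cells, and of the 199 lower genes, 87 (43.7%) were lower and 37 (18.6%) higher in WT cells. The shares over all tested genes in WT cells were 17.9% higher and 14% lower. Of the 402 genes called in KO cells, 379 had a mean of at least 3 log2 CPM over the 6 KO libraries. Among all 8616 genes at that level, 2010 were higher and 1818 lower with LPS in WT cells, a larger share than over all tested genes. Seen from WT cells, 125 of the 2699 genes higher with LPS there (4.63%) were higher in KO cells and 87 of the 2111 lower genes (4.12%) were lower. The 653 genes (4.32%) that were at least 2-fold higher with LPS in WT cells had a median difference of 0.08 in KO cells and 1.34 in WT cells. The 653 were chosen by their WT difference, so a large WT median follows from the choice. Of the 203 higher and 199 lower genes, the ligand difference itself differed between genotypes for 127 and 107, beside 22.7% over all tested genes. These genes were chosen by their KO difference, which is part of that test, so a raised share follows in part from the choice.

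With each library left out in turn, the number of called genes in KO cells ranged from 175, without LPS replicate 2, to 850, without LPS replicate 1. The 850 held 365 of the 402 genes called with all libraries. Without LPS replicate 3 the count was 192, and without LTA replicates 1, 2 and 3 it was 265, 214 and 257. Of the 203 higher genes 75, and of the 199 lower genes 37, were called in all 6 of these fits, and all 402 kept their sign in each. Without LPS replicate 1 and LTA replicate 2 together, 400 genes were called, 223 higher and 177 lower, of which 268 were among the 402.

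**Figure D4:**
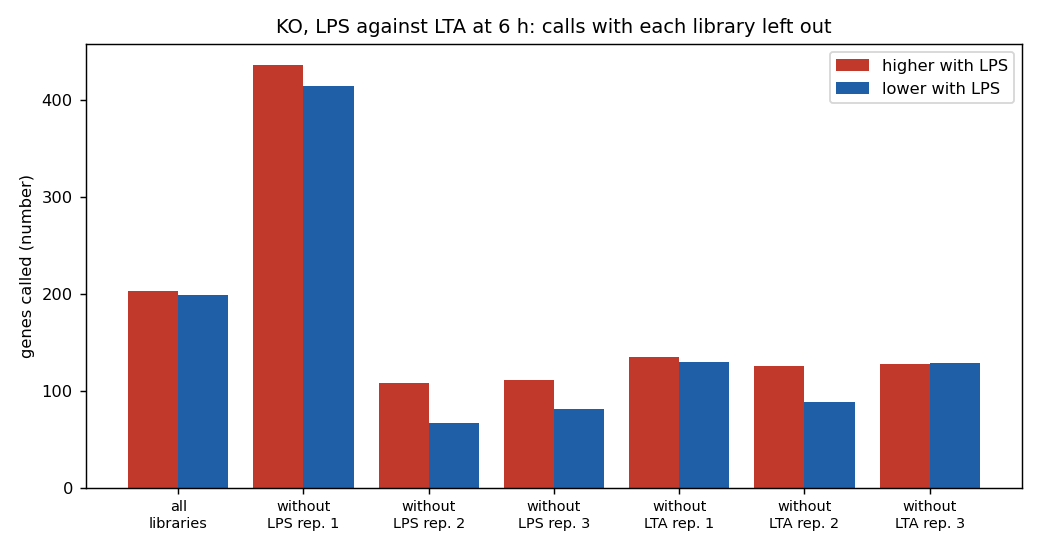
Number of genes called higher (red) and lower (blue) with LPS than with LTA in KO cells at 6 h, with all libraries and with each of the 6 libraries left out. Leaving out LPS replicate 1 gave the most calls, 436 higher and 414 lower, and leaving out LPS replicate 2 the fewest, 108 higher and 67 lower.

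At 2 h, where KO libraries held 1334784 to 2658329 counts, 211 genes (1.40%) differed between the ligands in KO cells, 172 (1.14%) higher and 39 (0.258%) lower with LPS. Il1a differed by 1.45 ± 0.08 at 2 h and 0.32 ± 0.04 at 6 h, Il1b by 0.98 ± 0.04 at 2 h and 0.20 ± 0.04 at 6 h, and Il12b by 2.09 ± 0.24 at 2 h and 0.42 ± 0.15 at 6 h. Il6 was higher with LPS at 2 h (0.91 ± 0.09, adjusted p = 5.5e-10) and lower at 6 h. Csf2 averaged 5.77 ± 0.80 CPM with LPS and 1.47 ± 0.91 CPM with LTA at 2 h (SD, n = 3 each), a difference of 2.00 ± 0.45. Cd40 differed by 0.89 ± 0.07 and Slco4a1 by -1.0 ± 0.08 at 2 h, each in the direction seen at 6 h. Egr1, the leading gene at 6 h, averaged 3.04 ± 0.84 CPM with LPS and 3.03 ± 1.04 CPM with LTA at 2 h, a difference of 0.06 ± 0.40, and Slc7a11 differed by -0.25 ± 0.07 (adjusted p = 0.054). Differences between the times were not tested.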

How the data were processed

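RNA was measured in 30 libraries, 3 for each of 10 groups, taken from the labels. The authors deposited a table named as raw counts for 32361 Ensembl gene IDs. Since 25.2% of its nonzero deposited values are fractions, its values were taken here to be expected counts and rounded for the fit. The tools listed per the submitters' processing notes are STAR 2.7.11, fastp 0.24.0, Subread 2.1.1, featureCounts and SAMtools 1.22.1, with the builds mm10 and GRCm38. What each did, the gene annotation and the strand setting are not stated there. GENCODE M21 gave names to 26314 IDs. The 6047 unnamed IDs, 1.31 to 3.87% of each library, were kept. Only 6 h appears in the text on harvest, and 2 h was taken from the sample labels.

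The fit used edgeR 4.0.16 in R 4.3.3, with filterByExpr (minimum count 10, total 15), TMM and robust quasi-likelihood, and a mean for each of the 10 groups (20 residual degrees of freedom). It kept 15119 genes, with a common biological coefficient of variation of 0.0411. The adjusted p (Benjamini-Hochberg within each contrast) was called below 0.05. Differences are log2 fold changes ± SE, LPS minus LTA or treated minus untreated, and genotype differences are KO minus WT. Levels are CPM computed with TMM factors and not per length, so they are not compared between genes. The fit was tested on simulated data. No library was identical to another.

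The groups and gene lists (622 genes in 27 lists, 571 tested) were chosen with earlier results of these data known. Named genes were a fixed panel, up to 4 called genes per list with the smallest p, the 12 largest called differences each way (mean log2 CPM of at least 2, groups that do not overlap), the 5 largest genotype differences each way, and the 8 genes induced by at least 3 (log2) with each ligand that had the tightest interval of their difference. List members counted as called are named too, and other genes were named after their values were seen. Alternatives were relative log expression and total-count scaling, no filter, DESeq2 1.42.0, fits on 6, 12 or 18 libraries, a replicate block, and each library left out. A replicate is 1 animal's cells, and each group held cells of 3 animals. The spread behind the p-values was estimated over all 30 libraries, so it covers both genotypes and both times. Without the block, the LPS and LTA groups were treated as independent, though the same 3 KO animals gave both. Promoter sequences came from RefSeq (GRCm38.p6). A few members of the gene lists are counted but not reported here by name.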

Additional observations from a re-analysis of the deposited data

Results flagged for a closer look

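The ligand difference (LPS minus LTA at 6 h) differed between KO and WT cells for 3425 genes by the interaction test, and 67 of the 97 genes named by rule were among them, 31 with a positive and 36 with a negative value. Given here are the 29 of these that belong to the fixed panel or to the 5 largest each way, since the others were chosen by values of the KO comparison. Values are the KO difference minus the WT difference, on the log2 scale. Positive ones were Csf2 4.75, Il23a 4.44, Areg 4.06, Lif 3.36, Ccl17 2.23, Cxcl1 1.91, Cxcl2 1.16, Il12b 0.99, Tnf 0.94, Il1a 0.79, Il1b 0.60, Cd14 0.28, Il6 0.26 and Ptgs2 0.19. Each of these was lower with LPS than with LTA in WT cells. Il23a had at most 0.525 CPM and Areg at most 1.501 CPM in any of the 6 KO libraries of 6 h, so their KO differences rest on few counts.

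Negative ones were Cxcl11 -3.30, Zc3h12d -2.84, Pou3f1 -2.67, Adap2 -2.55, Ifit1bl1 -2.53, Nos2 -1.76, Rsad2 -1.75, Irf7 -1.25, Il10 -1.21, Cxcl10 -1.01, Ifit1 -0.95, Isg15 -0.79, Irf1 -0.36, Acod1 -0.21 and Ccl5 -0.17. Each of these was higher with LPS in WT cells. Without LPS replicate 1 and LTA replicate 2 of the KO cells, the value of Ccl5 was -0.12 with an adjusted p of 0.18.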

How the results depend on the processing

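Counts are of genes called between LPS and LTA in KO cells at 6 h unless stated, where 402 were called, 203 higher, 199 lower and 8 by at least 2-fold. Leaving out single libraries gave 175 to 850 (108 to 436 higher, 67 to 414 lower, 3 to 17 by at least 2-fold), and the extremes came without LPS replicate 2 and LPS replicate 1. A fit on the 6 libraries alone, with fewer residual degrees of freedom, called 214, 123 higher and 91 lower. DESeq2 called 440, with 0 of at least 2-fold; it gave no adjusted p for 7035 genes, among them all 8 of these. The 5 other fits without a block called 297 to 426. All 402 kept their sign in every fit, except that 401 did so in the fits on 6 or 12 libraries and in the block fit on 12. Whether the gene left over there changed sign or was removed by the count filter is not given here. Of the 66 named genes called, 41 kept their call with each library left out.

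Same-numbered libraries of the 2 ligands did not deviate together in KO cells (r = -0.13, -0.18 and 0.0336 over 8519 genes), so the numbers were not taken as pairing them. For different-numbered libraries r ran from -0.103 to 0.217, the highest being LPS replicate 1 with LTA replicate 2. Whether these 2 libraries share an animal is not stated, and the part of this in the results was not tested. With the replicate block, 455 genes were called on all 30 libraries, and 189 on 12 (115 higher, 74 lower).

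With total counts as the scale, 3409 genes were lower with LPS in WT cells and 2304 genotype differences were positive. Against untreated KO cells the same scale gave 2365 higher and 6341 lower with LPS, and 2474 higher and 6207 lower with LTA. The cause was not tested. At 2 h in KO cells (172 higher, 39 lower, 22 by at least 2-fold), total counts gave 62 lower and DESeq2 12 by at least 2-fold, and leaving out single libraries gave 114 to 164 higher, 23 to 35 lower and 13 to 20 by at least 2-fold, the lowest counts without LTA replicate 1 or 2. The 2 h libraries held 1334784 to 2658329 counts in KO cells, so small differences of genes with few counts were not detectable there.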
